A study of Mus musculus with 4 samples.

Results

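A set of 9 genes that detect RNA or relay its detection was followed through mouse bone marrow and spleen carrying acute myeloid leukemia. They are Ddx58, Ifih1, Dhx58, Mavs, Eif2ak2, Zbp1, Adar, Tlr3 and Tlr7, and they make up 9 of the 32285 genes in each matrix. They were chosen by symbol for what they do, but with earlier results of these data known. The recipients were wild-type C57BL/6J mice aged 6 to 8 weeks. They carried MA9 leukemia cells, which express the MLL-AF9 fusion and held a doxycycline-inducible short hairpin, either a control (Ctrl) or one against Prmt9 (shPrmt9), an arginine methyltransferase. All mice drank doxycycline for 7 days, controls included. Bone marrow (BM) and spleen cells were profiled as 1 library per group and tissue by droplet 3′ RNA sequencing, giving the marrow libraries BM-shPrmt9 and BM-Ctrl and, from spleen, Spleen-shPrmt9 and Spleen-Ctrl. Lymphocytes and red-cell precursors of the recipient do not carry the hairpin, and the files hold no reporter tag that separates leukemic from recipient myeloid cells. Sex-linked transcripts differed between MA9 cells and the other cells but were not used to assign single cells. The study asked whether the immune response to Prmt9 loss starts from DNA sensing by cGAS or from double-stranded RNA sensors.

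Ddx58 (RIG-I) and Ifih1 (MDA5) are cytosolic helicases that bind viral or unusual cellular RNA and then engage Mavs, an adaptor on mitochondria that leads to interferon production. Dhx58 (LGP2) is a related helicase without the signalling domains and tunes the other pair. Eif2ak2 (PKR) and Zbp1 bind double-stranded RNA or left-handed nucleic acid and lead to a stop in translation or to cell death. Adar edits adenosine in double-stranded RNA and so keeps a cell's own RNA from being sensed. Tlr3 and Tlr7 read RNA in endosomes, Tlr7 above all in plasmacytoid dendritic cells and B cells. Most of these genes, though not Mavs, are themselves switched on by interferon.

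On mouse build GRCm38 the cytosolic sensors lie at chr4:40203773-40239828 (Ddx58, minus strand), chr2:62595798-62646255 (Ifih1, minus strand) and chr11:100694884-100704271 (Dhx58, minus strand). Mavs lies at chr2:131234063-131248025 on the plus strand. Eif2ak2 spans chr17:78852564-78882573 and Zbp1 chr2:173206612-173218923, both on the minus strand. Adar spans chr3:89715022-89753446 on the plus strand. Tlr3 lies at chr8:45395665-45411080 and Tlr7 at chrX:167304929-167330558, both on the minus strand. Genes on the opposite strand overlap Dhx58 (Dhx58os), Adar (Chrnb2) and Tlr3 (Gm45542), so reads of these 3 members depend on the strand setting of the counting.

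RefSeq promoters on GRCm38.p6, from 250 bases before to 50 after the start, were matched for 6 of the 9 members, with 8 promoters in all. They are printed because interferon acts through the interferon-stimulated response element, searched here as GAAA, any 2 bases and GAAA again, on both strands. It was found in Ddx58, Ifih1 and Eif2ak2, and in none of the promoters of Mavs, Adar (3 promoters) and Tlr3. A match was held by 3.44% of all 32851 mouse promoters of that collection. The match is in capitals below, each line reading 5′ to 3′ on the gene's minus strand, and begins 2, 32 and 18 bases after the start of Ddx58, Ifih1 and Eif2ak2, respectively.
Ddx58, chr4:40239804-40239833: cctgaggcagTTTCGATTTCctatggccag
Ifih1, chr2:62646206-62646233: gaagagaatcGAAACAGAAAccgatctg
Eif2ak2, chr17:78882535-78882564: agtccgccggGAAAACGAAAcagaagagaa
The 100 bases before the start of Mavs, on the plus strand, are set beside them as the adaptor without a match.
Mavs, chr2:131233963-131234062: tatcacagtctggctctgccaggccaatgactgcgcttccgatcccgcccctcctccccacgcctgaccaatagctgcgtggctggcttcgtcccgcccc
The motif TTCNNNGAA of factors that respond to type II interferon was found in Eif2ak2 and in 1 Adar promoter, against 8.3% of all promoters. Dhx58, Zbp1 and Tlr7 are named only. A match describes letters in these windows and not a bound site.

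The matrices held 9746 barcodes and 171461718 UMIs (molecules counted once) in BM-Ctrl, 11315 and 188030429 in BM-shPrmt9, 9115 and 84009744 in Spleen-Ctrl, and 8648 and 109555157 in Spleen-shPrmt9. Between 7507 and 10163 cells per library were used, and 96.1% of them passed a gate on cell type markers. From 0.713% to 0.893% of a library's barcodes also occurred in another library. Prmt9 itself stood at 11.1 UMIs per 1000000 UMIs of the class (CPM) in MA9 cells of BM-Ctrl, 6.42 in BM-shPrmt9, 18.8 in Spleen-Ctrl and 6.20 in Spleen-shPrmt9. It was lower in the shPrmt9 library of both tissues, as the labels say. Prmt9 was also lower in spleen T cells (0.595-fold) and B cells (0.723-fold), which do not carry the hairpin, while marrow T cells (1.04-fold) and B cells (1.08-fold) had intervals that reached over 1. The study's methods speak of a representative mouse per group, but the 2 tissues of a group came from different animals: 4 Y-linked genes gave 0 and 1 UMIs in the cells other than MA9 of the marrow libraries and 15174 and 12930 in those of the spleen libraries. With 1 library per group there is no test, and a difference between libraries includes any difference between animals and preparations. Intervals below are exact 95% intervals (Poisson for levels, conditional binomial for ratios, binomial for shares) and cover counting error only.

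MA9 cells were gated on Hoxa9, Meis1 and the other fixed leukemia markers, whatever their neutrophil score. They numbered 1634 in BM-Ctrl, 1939 in BM-shPrmt9, 39 in Spleen-Ctrl and 177 in Spleen-shPrmt9. Of the 8 members with at least 20 UMIs over both marrow libraries, 5 were at least 2-fold higher in BM-shPrmt9 and 0 were 2-fold lower, where 13.7% of all 14273 genes compared were 2-fold higher and 7.04% lower. In spleen 5 of 7 were 2-fold higher and 0 lower, against 11.1% and 16.3% of all genes. The median ratio over the members was 2.48 in marrow and 2.40 in spleen, and over all genes compared it was 1.02 and 0.928. The helicases and Zbp1 were higher in both tissues, Eif2ak2 and Adar stayed under 2-fold, and Mavs was lower in marrow. Ifih1 was among the genes that the study itself displayed from these samples, so its direction is not independent evidence.

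**Figure D1:**
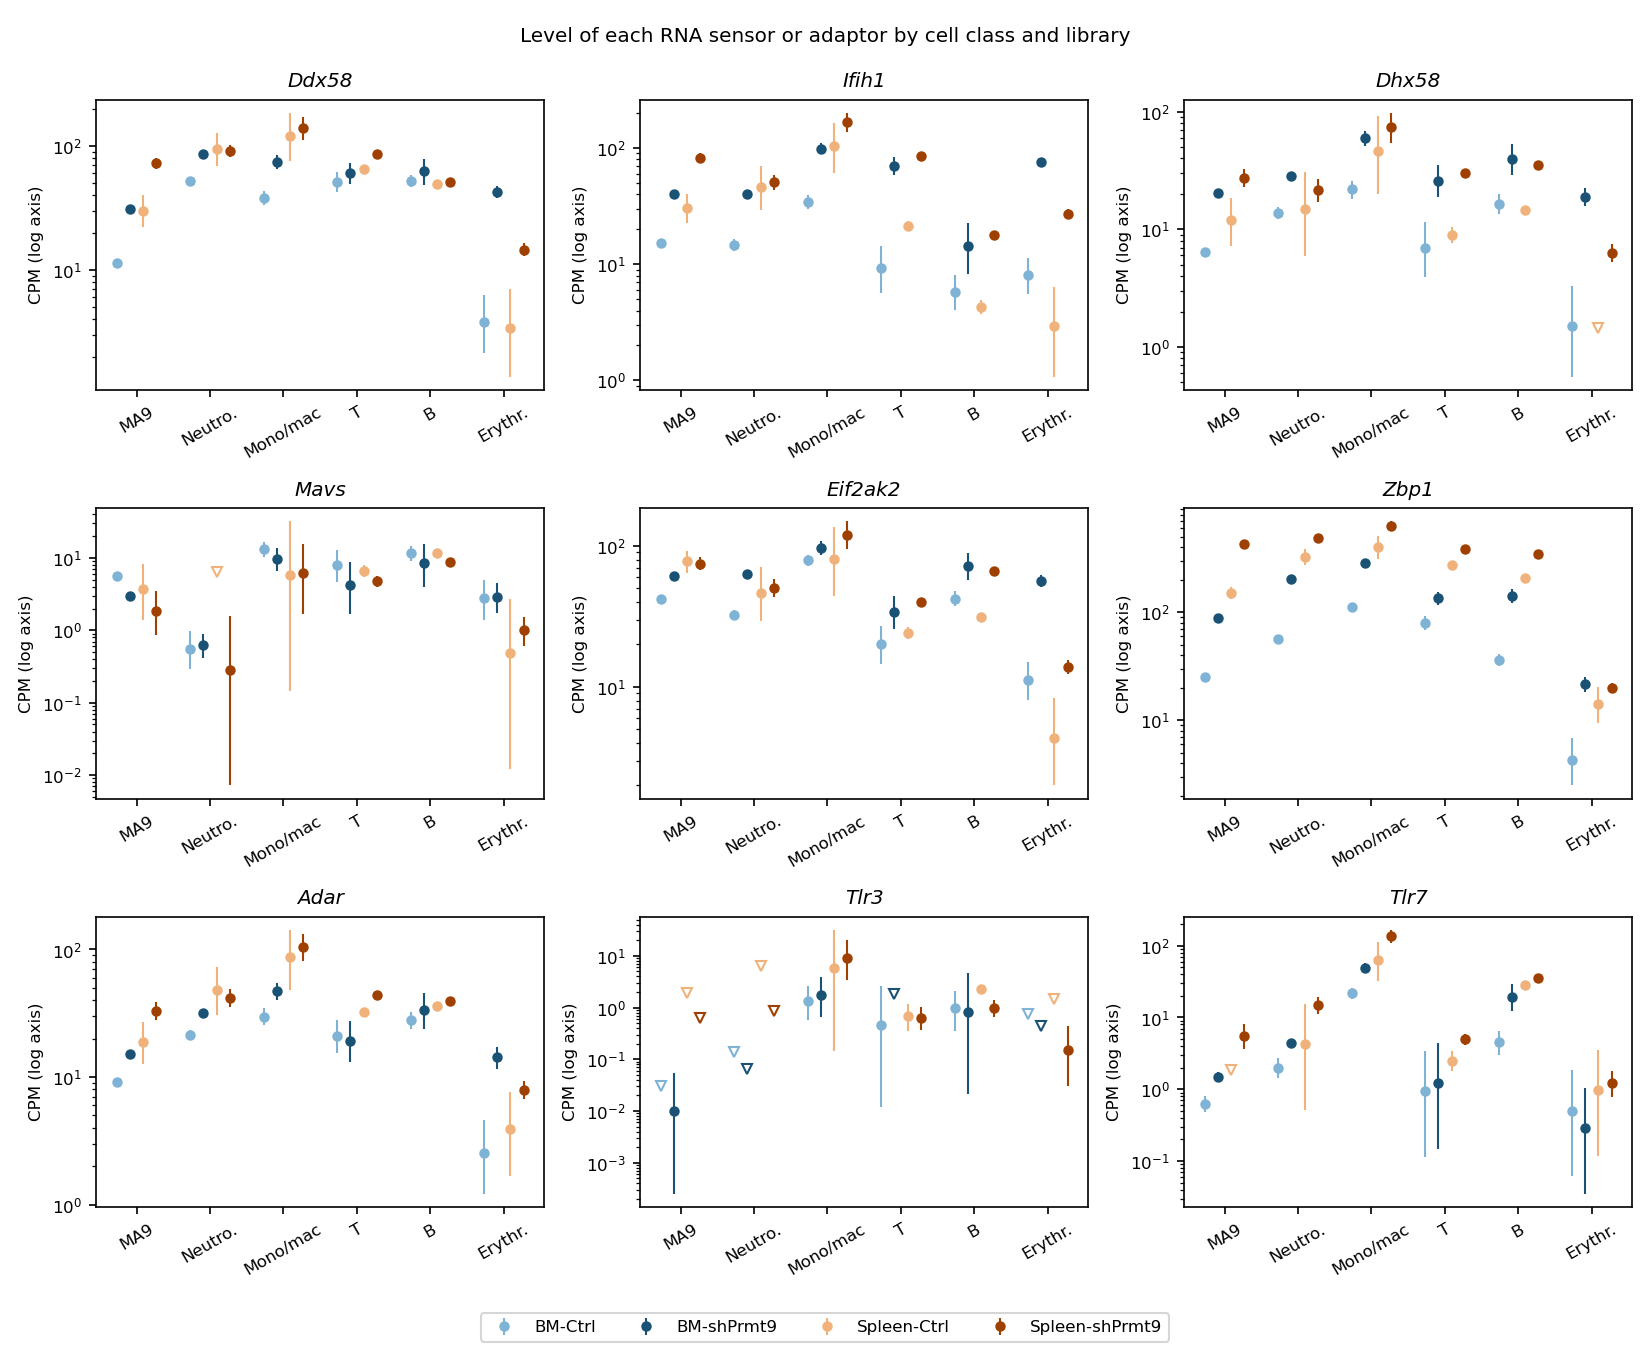
Level of each member (CPM, log axis) in 6 cell classes, with 1 point per library and exact Poisson 95% intervals; open triangles stand at 3 UMIs where a library held none. In MA9 cells the level of Zbp1 ran from 25.2 in BM-Ctrl to 425 in Spleen-shPrmt9, and the lowest marrow points of the Mavs panel are those of neutrophils.

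Ddx58 stood at 11.3 CPM in MA9 cells of BM-Ctrl, 31.1 in BM-shPrmt9, 30.1 in Spleen-Ctrl and 72.1 in Spleen-shPrmt9. The ratio of shPrmt9 to Ctrl was 2.74 (2.56 to 2.94) in marrow and 2.40 (1.77 to 3.32) in spleen. Within either tissue the intervals of the 2 libraries did not overlap, although Spleen-Ctrl was about level with BM-shPrmt9. In neutrophils Ddx58 went from 51.8 to 86.1 CPM in marrow and from 94.99 to 90.5 in spleen, ratios of 1.66 (1.56 to 1.78) and 0.953 (0.696 to 1.33). Inside the largest neutrophil cluster of BM-Ctrl the marrow ratio was 0.983 (0.662 to 1.41), and inside that of BM-shPrmt9 0.929 (0.729 to 1.20). In T cells the ratios were 1.18 (0.887 to 1.56) and 1.33 (1.24 to 1.43), and in spleen B cells Ddx58 was level, at 49.0 and 50.7 CPM. In erythroid cells it went from 3.79 to 42.7 CPM in marrow, 11.3-fold (6.72 to 20.4), and from 3.40 to 14.6 in spleen, 4.28-fold (2.05 to 10.7). Among the 6 main classes of BM-Ctrl, B cells (52.1), neutrophils (51.8) and T cells (51.4) had overlapping intervals at the top, MA9 cells lay below monocytes/macrophages (38.4), and erythroid cells were lowest.

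Ifih1 stood at 15.4 CPM in MA9 cells of BM-Ctrl, 40.1 in BM-shPrmt9, 30.7 in Spleen-Ctrl and 82.7 in Spleen-shPrmt9. The ratios were 2.60 (2.45 to 2.76) and 2.69 (2.00 to 3.70). In T cells its ratio was larger. They held 9.34 CPM in BM-Ctrl, 70.6 in BM-shPrmt9, 21.4 in Spleen-Ctrl and 84.9 in Spleen-shPrmt9. These are ratios of 7.56 (4.68 to 12.8) in marrow and 3.97 (3.56 to 4.44) in spleen, and both shPrmt9 libraries were above both controls. Spleen CD4 T cells went from 31.3 to 101 CPM and CD8 T cells from 16.1 to 73.0. B cells held 5.80 CPM in BM-Ctrl and 14.3 in BM-shPrmt9, and 4.30 in Spleen-Ctrl and 17.8 in Spleen-shPrmt9, ratios of 2.46 (1.30 to 4.50) and 4.15 (3.53 to 4.90). Erythroid cells went from 8.09 to 76.1 CPM in marrow and from 2.92 to 27.4 in spleen, ratios of 9.40 (6.58 to 13.9) and 9.38 (4.28 to 25.7). Among the 6 main classes monocytes/macrophages had the highest level in BM-Ctrl, 34.3 CPM, above MA9 cells and neutrophils (14.7), whose intervals overlapped. They held 98.6 in BM-shPrmt9, 104 in Spleen-Ctrl and 167 in Spleen-shPrmt9, with a marrow ratio of 2.87 (2.41 to 3.44). Spleen neutrophils differed from this pattern, with 46.4 and 50.8 CPM and a ratio of 1.09 (0.700 to 1.79), while marrow neutrophils went from 14.7 to 40.7, 2.77-fold (2.46 to 3.13).

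The higher Ifih1 level was also seen as a larger share of cells. After each cell was thinned to 1000 UMIs, 2.86% of spleen T cells in Ctrl and 8.09% in shPrmt9 held a UMI of Ifih1, and 14.97% and 44.7% did before thinning. In marrow MA9 cells the thinned shares were 1.59% and 4.54%, and the unthinned shares, at a median of 58999 and 48995 UMIs per cell, were 54.2% and 72.7%.

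Dhx58 stood at 6.44 CPM in MA9 cells of BM-Ctrl, 20.5 in BM-shPrmt9, 11.9 in Spleen-Ctrl and 27.5 in Spleen-shPrmt9. The ratios were 3.19 (2.92 to 3.49) and 2.31 (1.42 to 3.96), the second from 19 and 133 UMIs. T cells went from 7.01 to 26.0 CPM in marrow and from 8.99 to 30.2 in spleen, 3.71-fold (2.02 to 7.18) and 3.36-fold (2.83 to 4.01). B cells went from 16.4 to 39.5 and from 14.5 to 35.3, 2.40-fold (1.66 to 3.43) and 2.44-fold (2.22 to 2.69). In marrow the gene was also above 2-fold in monocytes/macrophages (2.71) and neutrophils (2.06). Erythroid cells of Spleen-Ctrl held 0 UMIs and those of Spleen-shPrmt9 126. This is 4.34-fold higher with 3 UMIs taken as the floor of the control library, a set value and not an interval limit. Dhx58 was therefore higher in lymphocytes and red-cell precursors as well as in leukemia cells. In BM-Ctrl monocytes/macrophages (21.8) and B cells (16.4) were highest of the 6 main classes with overlapping intervals, and T cells (7.01) and MA9 cells were not separated.

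Mavs had ratios below 1 in marrow MA9 cells and several other classes. MA9 cells held 5.58 CPM in BM-Ctrl and 3.001 in BM-shPrmt9, a ratio of 0.538 (0.466 to 0.619) from 550 and 307 UMIs, and in spleen 6 and 9 UMIs were too few to compare. Spleen B cells went from 11.8 to 8.85 CPM and spleen T cells from 6.60 to 4.75. These are ratios of 0.748 (0.642 to 0.868) and 0.720 (0.555 to 0.934). The median ratio over all genes compared was also below 1 there, at 0.865 in spleen B cells and 0.9495 in spleen T cells. Mavs lay between the 25th and 75th percentiles of all genes in spleen B cells and just below the 25th in spleen T cells. A reduction particular to Mavs is therefore not shown in spleen B cells. The ratios of 0.737 in marrow monocytes/macrophages, 0.532 in marrow T cells and 0.724 in marrow B cells had intervals that reached over 1. None of these classes passed the 2-fold rule. The marrow MA9 and T cells passed at 1.5-fold, where 15.9% and 10.8% of all genes were lower. Mavs was not lower in marrow neutrophils (1.11), marrow erythroid cells (1.03) or, from 1 and 20 UMIs, spleen erythroid cells (2.07). Over all cells Mavs was 0.477-fold (0.426 to 0.534) in marrow, where 9.3% of all genes were 2-fold lower, and 0.545-fold (0.486 to 0.611) in spleen. The median ratio over all genes was 0.911 in marrow and 0.789 in spleen. The all-cell value also moves with cell makeup, since B cells were 1130 of the cells in BM-Ctrl and 106 in BM-shPrmt9, and neutrophils, whose level was lowest, were 3986 and 5724. Marrow neutrophils held 12 and 29 Mavs UMIs, or 0.560 and 0.620 CPM, the lowest of the 6 classes in both marrow libraries. In BM-Ctrl monocytes/macrophages (13.2), B cells (11.6) and T cells (7.94) were above MA9 cells, although the T cell interval overlapped that of MA9 cells.

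**Figure D2:**
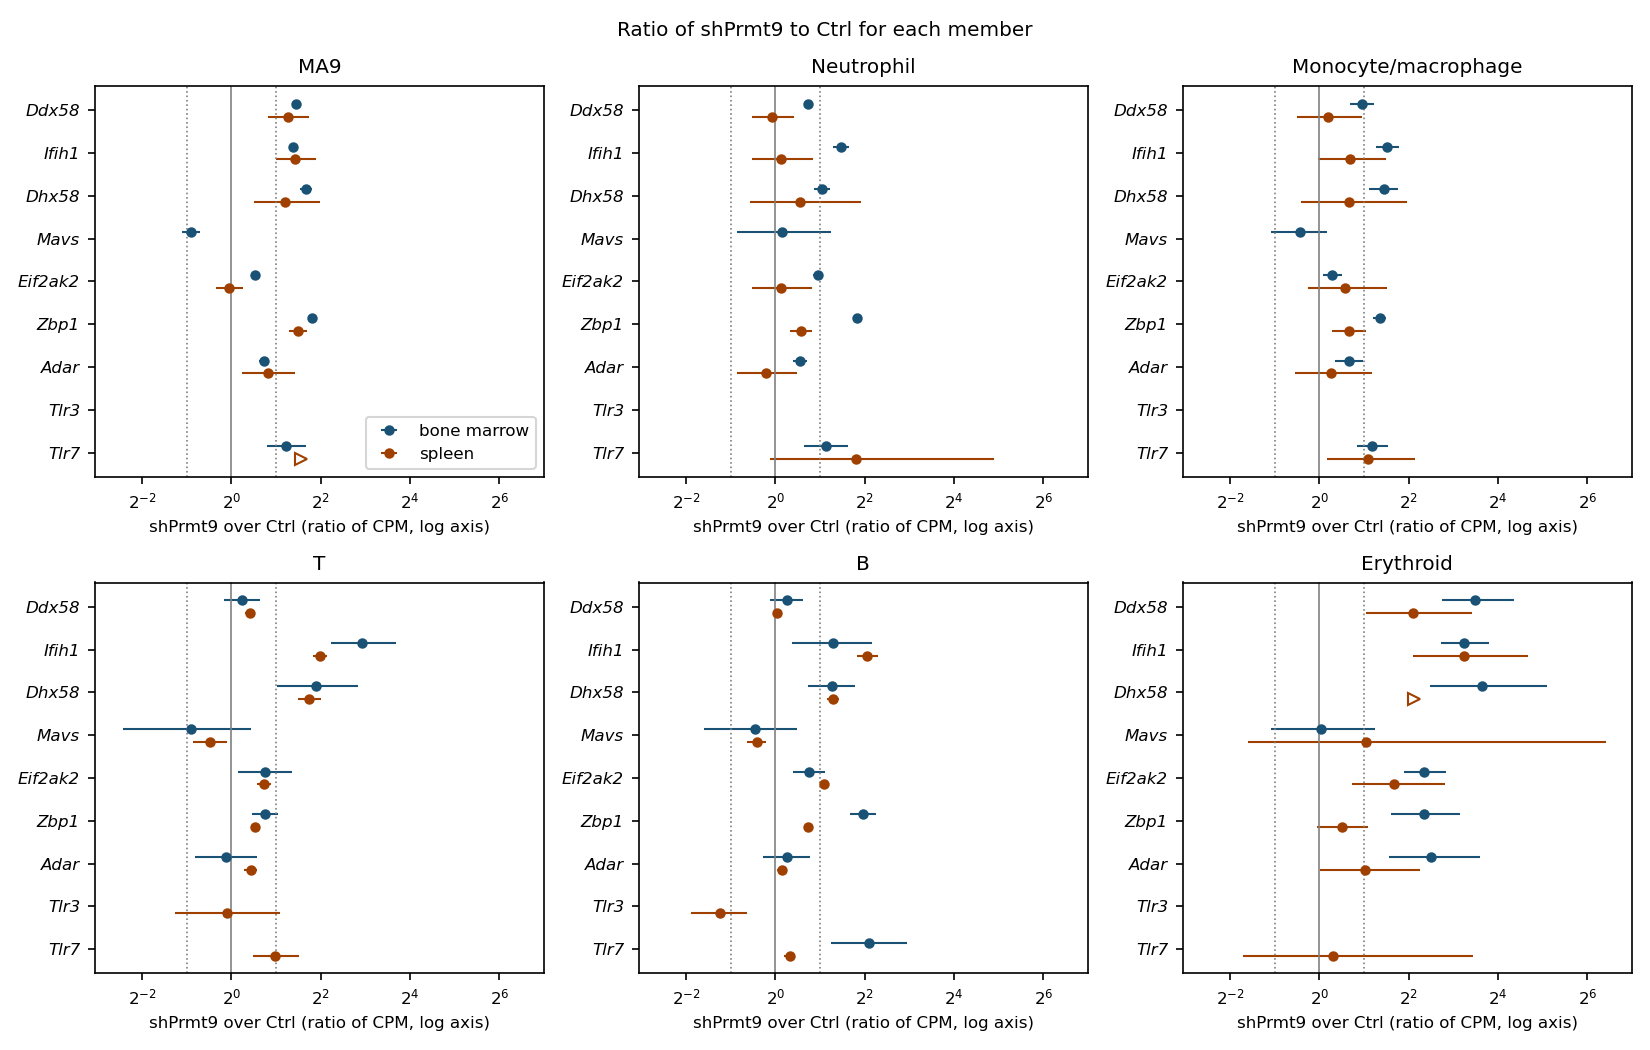
Ratio of shPrmt9 to Ctrl (CPM over CPM, log axis) for each member in 6 cell classes, marrow in blue and spleen in orange. Bars are exact conditional binomial 95% intervals, and dotted lines mark 2-fold. Open triangles are ratios with an empty control taken at the floor of 3 UMIs. Ifih1 and Dhx58 lie right of 1 in every class shown, while Mavs lies left of it in MA9, T, B and marrow monocytes/macrophages.

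Zbp1 had the largest marrow ratio of the members in MA9 cells. It stood at 25.2 CPM in BM-Ctrl, 88.2 in BM-shPrmt9, 151 in Spleen-Ctrl and 425 in Spleen-shPrmt9, with ratios of 3.49 (3.34 to 3.65) and 2.82 (2.46 to 3.23). The control spleen was above the shPrmt9 marrow, so the gap between tissues was wider than that between groups. The same held in T cells, with 79.9 and 135 CPM in marrow and 270 and 388 in spleen, ratios of 1.69 (1.38 to 2.07) and 1.43 (1.39 to 1.49). Neutrophils went from 56.8 to 201 CPM in marrow and from 325 to 483 in spleen, 3.54-fold (3.33 to 3.76) and 1.49-fold (1.26 to 1.76). B cells went from 36.1 to 141 CPM in marrow, 3.91-fold (3.18 to 4.80), and from 207 to 342 in spleen, 1.65-fold (1.61 to 1.70). In each of these classes the control spleen exceeded both marrow libraries. In BM-Ctrl the order of the 6 main classes was monocytes/macrophages (112), T cells (79.9), neutrophils (56.8), B cells (36.1), MA9 cells (25.2) and erythroid cells (4.30), with no overlap between neighbours. After thinning, 1.90% and 8.15% of marrow MA9 cells held a Zbp1 UMI (58.3% and 88.3% unthinned). In erythroid cells, the class with the lowest level, the thinned share was 0% and 1.90% in marrow.

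Eif2ak2 moved little in MA9 cells, with 42.3 CPM in BM-Ctrl, 61.5 in BM-shPrmt9, 77.7 in Spleen-Ctrl and 74.8 in Spleen-shPrmt9. The ratios were 1.45 (1.40 to 1.51) in marrow and 0.963 (0.783 to 1.19) in spleen. In spleen B cells it went from 31.2 to 66.4 CPM, 2.13-fold (1.99 to 2.28). In T cells the ratio was 1.68 (1.11 to 2.57) in marrow and 1.66 (1.48 to 1.86) in spleen, and in neutrophils 1.94 (1.78 to 2.11) and 1.09 (0.696 to 1.78). The marrow neutrophil ratio was 1.01 and 1.02 inside the largest neutrophil clusters of BM-Ctrl and BM-shPrmt9. Erythroid cells went from 11.1 to 56.7 CPM in marrow and from 4.37 to 13.9 in spleen, 5.09-fold (3.72 to 7.12) and 3.18-fold (1.65 to 7.02). Of the 6 main classes monocytes/macrophages (79.1) were highest in BM-Ctrl. MA9 cells and B cells (42.2) were not separated.

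Adar, counted over all its transcripts, stood at 9.20 CPM in MA9 cells of BM-Ctrl, 15.3 in BM-shPrmt9, 18.8 in Spleen-Ctrl and 33.1 in Spleen-shPrmt9. The ratios were 1.66 (1.53 to 1.80) and 1.76 (1.19 to 2.69), below 2-fold in both tissues. In B cells they were 1.21 (0.833 to 1.71) and 1.11 (1.03 to 1.19), and in T cells 0.919 (0.565 to 1.48) and 1.36 (1.22 to 1.501). Neutrophils held 21.5 and 31.6 CPM in marrow and 48.6 and 42.0 in spleen, a ratio of 1.47 (1.33 to 1.64) against 0.865 (0.555 to 1.41). Erythroid cells of the marrow went from 2.53 to 14.2 CPM, 5.63-fold (2.94 to 12.1). The 3′ counts do not separate the interferon-driven long form of the enzyme from the constitutive one. In BM-Ctrl MA9 cells lay below monocytes/macrophages (29.7), B cells (27.9), neutrophils (21.5) and T cells (21.02), and the T cell interval overlapped those of the other three.

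Tlr7 was seen mostly in plasmacytoid dendritic cells, monocytes/macrophages, B cells and plasma cells in these libraries. Plasma cells held 35.3 CPM in Spleen-Ctrl (18 cells) and 47.8 in Spleen-shPrmt9 (117 cells). Neutrophils of Spleen-shPrmt9 held 14.8 CPM, from 52 UMIs. Plasmacytoid dendritic cells held 88.5 CPM in BM-Ctrl (111 cells) and 87.6 in BM-shPrmt9 (19 cells), a ratio of 0.991 (0.588 to 1.60). Monocytes/macrophages held 21.6 and 49.2 in marrow and 63.5 and 135 in spleen, ratios of 2.27 (1.79 to 2.88) and 2.13 (1.13 to 4.42). Inside the 2 marrow clusters that hold these cells in both libraries the ratios were 0.982 (0.751 to 1.28) and 1.45 (0.870 to 2.59). Those ratios count all cells of a cluster, whatever their class. In cluster 12, 390 of 708 cells of BM-Ctrl and 68 of 338 cells of BM-shPrmt9 were gated as monocytes/macrophages. The main cluster of the class was a different one in BM-Ctrl and BM-shPrmt9. B cells held 4.51 and 19.3 CPM in marrow, 4.28-fold (2.36 to 7.71), and 27.9 and 34.9 in spleen, 1.251-fold (1.15 to 1.36). The marrow B cells also came from different main clusters in the 2 libraries. T cells, which are not known for Tlr7, held 2.50 and 4.94 CPM in spleen. After thinning, 3.11% and 3.80% of spleen B cells and 0.352% and 0.686% of spleen T cells had a UMI, at medians of 6390 and 16408 UMIs in B cells and 7162 and 8670 in T cells before thinning.

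In MA9 cells Tlr7 stood at 0.629 CPM in BM-Ctrl and 1.48 in BM-shPrmt9, no higher than the 0.934 and 1.21 CPM (2 UMIs each) of marrow T cells beyond their intervals. Its ratio of 2.35 (1.73 to 3.21) was the smallest of the 5 members past 2-fold there. In spleen MA9 cells Tlr7 had 0 and 27 UMIs, 2.97-fold higher with the control taken at the floor of 3 UMIs. The ratio in marrow fell to 1.37 once RNA of other cells was subtracted. That subtraction used Xist, which MA9 cells of BM-Ctrl held at 0.254 CPM and those of BM-shPrmt9 at 30.8, while the other cells held 22.6 and 262. Whether leukemia-derived cells were among these other cells was not tested. With the assumption that MA9 cells make no Xist, 1.12% and 11.7% of their UMIs came from other cells. The other 4 members past 2-fold in marrow MA9 cells stayed so after it, with ratios of 2.27 for Ddx58, 2.54 for Ifih1, 3.06 for Dhx58 and 3.06 for Zbp1. The summed level of the 11 neutrophil markers, all of them detected in MA9 cells, also moved with the groups, at 6773 CPM in BM-Ctrl and 33058 in BM-shPrmt9, and at 77916 in Spleen-Ctrl and 173031 in Spleen-shPrmt9. Its part in the ratios was not tested beyond the subtraction.

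Tlr3 was nearly absent, with 0 and 1 UMIs in marrow MA9 cells and 0 in neutrophils of all 4 libraries. The only class with enough UMIs to compare besides spleen T cells (12 and 17) was spleen B cells, with 112 UMIs in Ctrl and 28 in shPrmt9. The level there went from 2.31 to 0.979 CPM, a ratio of 0.423 (0.269 to 0.645). It was the 1 member 2-fold lower in any of the 6 main classes, where 14.2% of all genes were 2-fold lower. The main B cell cluster was a different one in Spleen-Ctrl and Spleen-shPrmt9. Within the 2 clusters that both libraries filled, the ratios were 0.781 (0.323 to 1.93) and 0.353 (0.163 to 0.763).

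Read across classes, the members moved unevenly. Marrow neutrophils had 4 of 8 members 2-fold higher against 4.78% of all genes, and marrow monocytes/macrophages 4 of 8 against 7.28%. Spleen neutrophils had 1 of 7 against 7.06% and spleen monocytes/macrophages, with 24 control cells, 1 of 7 against 10.4%. That member was Tlr7 in both. In spleen neutrophils its ratio was 3.49 (0.920 to 29.6), from 2 and 52 UMIs. Tlr7 was also 1 of the 4 in marrow neutrophils, at 2.19-fold. In T cells the number was 2 of 7 in marrow and 2 of 9 in spleen, Ifih1 and Dhx58 in both, where 4.26% and 4.8% of all genes were 2-fold higher. At 1.5-fold it was 4 in either tissue, against 11.5% and 9.97%, and 4 in spleen monocytes/macrophages, against 20.2%. In B cells it was 4 of 8 and 3 of 9 against 4.21% and 4.55%. Erythroid cells had 6 of 7 in marrow and 6 of 8 in spleen against 14.7% and 10.1%. Those in spleen include Mavs, at 2.07 (0.330 to 85.6) from 1 and 20 UMIs, which reversed under other settings given below. They also include Adar, at 2.04 from 8 and 158 UMIs, and Dhx58, with 0 control UMIs taken at the floor. Of these 6 classes the median ratio over the members was highest in marrow erythroid cells, 5.63 against 1.17 for all genes, and 2.62 against 0.792 in spleen. The sizes of the erythroid ratios depended on the processing, as given below.

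**Figure D3:**
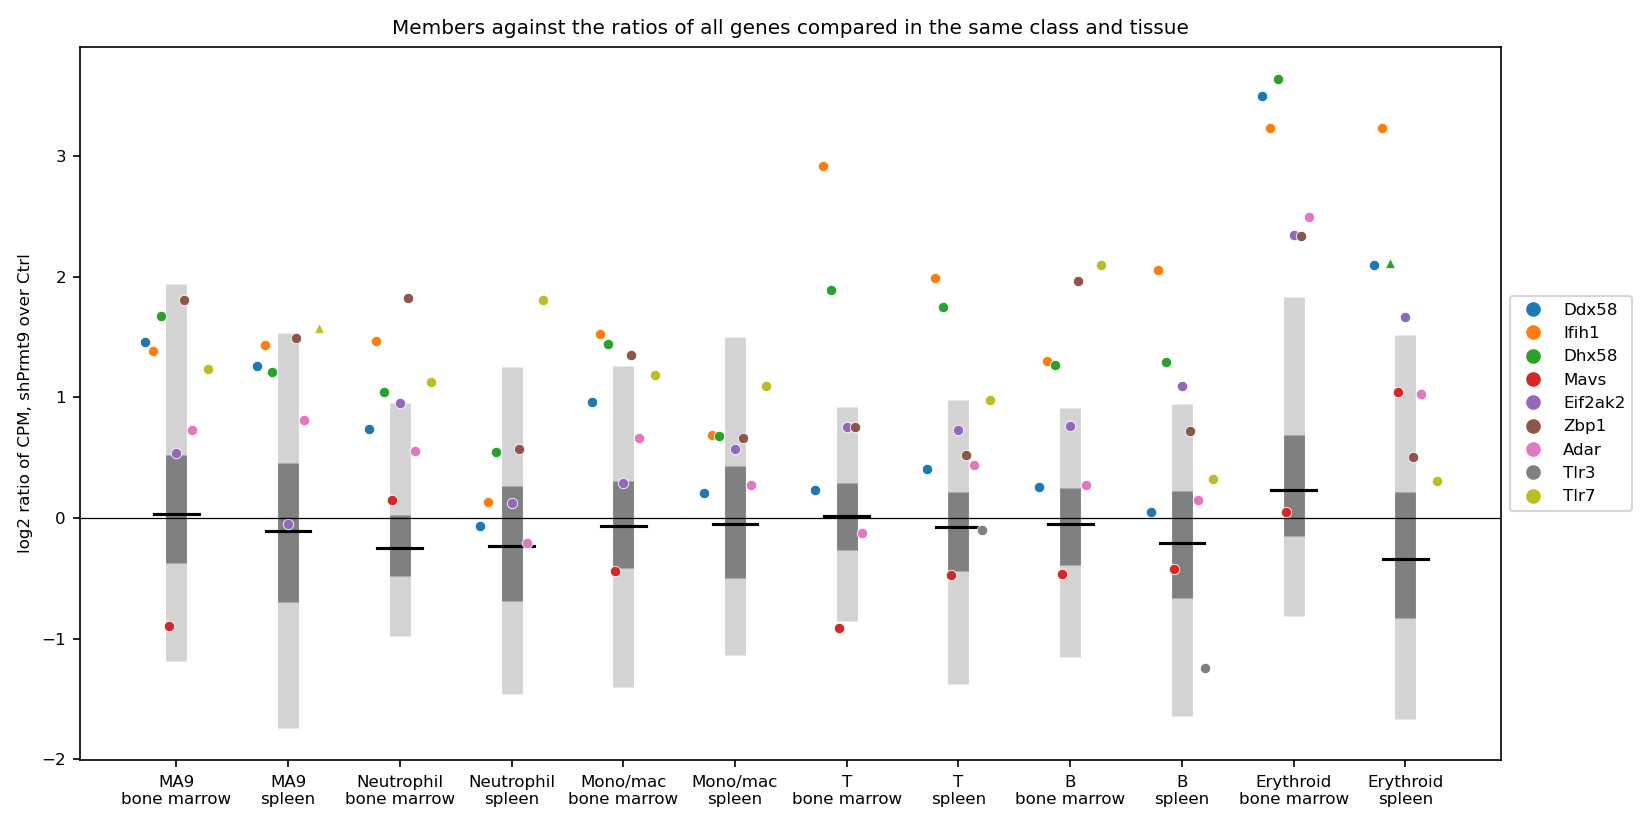
Log2 ratio of shPrmt9 to Ctrl for each member (coloured points) over the spread of all genes compared in the same class and tissue. Triangles are ratios with an empty control taken at the floor of 3 UMIs. Dark bars run from the 25th to the 75th percentile, light bars from the 5th to the 95th, and black lines stand at the median. Ifih1 lies above the 95th percentile of T and B cells in both tissues and inside the light bar in marrow MA9 cells.

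Among classes with fewer cells, spleen NK cells and marrow basophils had ratios above 1 for each member compared. The median ratio over all genes compared was 1.12 in spleen NK cells and 0.967 in marrow basophils. Spleen NK cells (78 and 141 cells) had 5 of 5 members 2-fold higher, where 10.5% of all genes were, led by Zbp1 with 19.0 and 72.9 CPM, a ratio of 3.84 (2.40 to 6.39). Marrow basophils (87 and 97 cells) had 5 of 6, where 5.09% of all genes were, with Ifih1 at 4.99 and 31.4 CPM, a ratio of 6.30 (2.28 to 24.2), and Zbp1 at 39.9 and 162, a ratio of 4.05 (2.78 to 6.07). With the cell richest in each member left out of each library the number in basophils was 3. Most ratios were above 1 in marrow neutrophil progenitors (7 of 8), marrow megakaryocytes (6 of 7, from 17 and 41 cells) and spleen plasma cells (7 of 8). The median ratio over all genes compared was 0.984, 1.08 and 1.16 in these classes, so ratios above 1 were also common among all genes in the last 2. In marrow conventional dendritic cells (20 and 11 cells) 2 of 5 ratios were above 1, with a median of 0.956. Marrow NK cells (38 and 11 cells) had 1 member to compare, at 0.848. Marrow plasmacytoid dendritic cells had 2 of 6 ratios above 1. They had Ifih1 at 18.0 and 58.4 CPM, 3.24-fold (1.52 to 6.68), while Zbp1 (30 and 4 UMIs) and Dhx58 (30 and 6 UMIs) had intervals that reached over 1.

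Cells of a class did not sit in the same clusters in both libraries. The ratios were therefore also taken inside single clusters with at least 50 cells in each library of a tissue. All cells of a cluster were counted, whatever their gated class. The members and a fixed list of other interferon-stimulated genes were left out when the clusters were made. Genes outside that list stayed in, and whether the clusters still follow interferon state was not tested. T cell clusters 8 and 11 lay almost wholly in 1 spleen library, with 8 cells in Ctrl against 1618 in shPrmt9, and 5 against 1065. No MA9 cluster had at least 50 cells in both libraries of a tissue. Clusters 10 and 18 held most of the marrow MA9 cells of Ctrl, and clusters 6 and 21 those of shPrmt9. The largest cluster of spleen T cells was 9 in Ctrl and 8 in shPrmt9, that of spleen erythroid cells 4 and 14, and that of spleen neutrophils 1 and 24, where the median depth of a neutrophil was 3495 and 12974.5 UMIs. In spleen T cell cluster 9 Ifih1 was 2.74-fold (1.92 to 3.83), Dhx58 3.44-fold (2.10 to 5.45) and Zbp1 1.11-fold (0.974 to 1.27). In spleen B cell cluster 3 the ratios were 3.32 for Ifih1, 3.34 for Dhx58 and 1.97 for Zbp1, and in cluster 13 they were 4.58, 3.77 and 2.26. Marrow T cell cluster 9 had Ifih1 at 4.45-fold (2.45 to 8.50) and Zbp1 at 0.908-fold (0.686 to 1.20), both lower than over all marrow T cells. Marrow neutrophil cluster 5 had Zbp1 at 3.64-fold and Ifih1 at 2.76-fold, with Ddx58 at 1.61, Eif2ak2 at 1.98 and Adar at 1.91. Cluster 2, the largest of BM-Ctrl, had Zbp1 at 2.99 and Ifih1 at 2.96, but the intervals of Dhx58 (1.21), Eif2ak2 (1.01) and Adar (1.02) reached across 1. Cluster 1, the largest neutrophil cluster of BM-shPrmt9 but not of BM-Ctrl, had them at 1.70 and 1.37, with Dhx58 at 0.871 (0.537 to 1.51), Eif2ak2 at 1.02 (0.744 to 1.45) and Adar at 1.10 (0.705 to 1.81). Erythroid cluster 4 had Ifih1 at 16.3-fold (9.22 to 31.9) in marrow and 18.3-fold (7.08 to 67.3) in spleen, from control counts of 12 and 4 UMIs. Zbp1 in that cluster was 10.7-fold (3.47 to 53.2) in marrow and 0.820-fold (0.482 to 1.48) in spleen. Erythroid cluster 14 of the spleen had Ifih1 at 3.83-fold (0.659 to 154), from 1 and 54 UMIs. Ifih1 was above 1 in every cluster with enough UMIs to compare, and Mavs lay between 0.46 and 0.99 in the 7 where it could be compared.

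**Figure D4:**
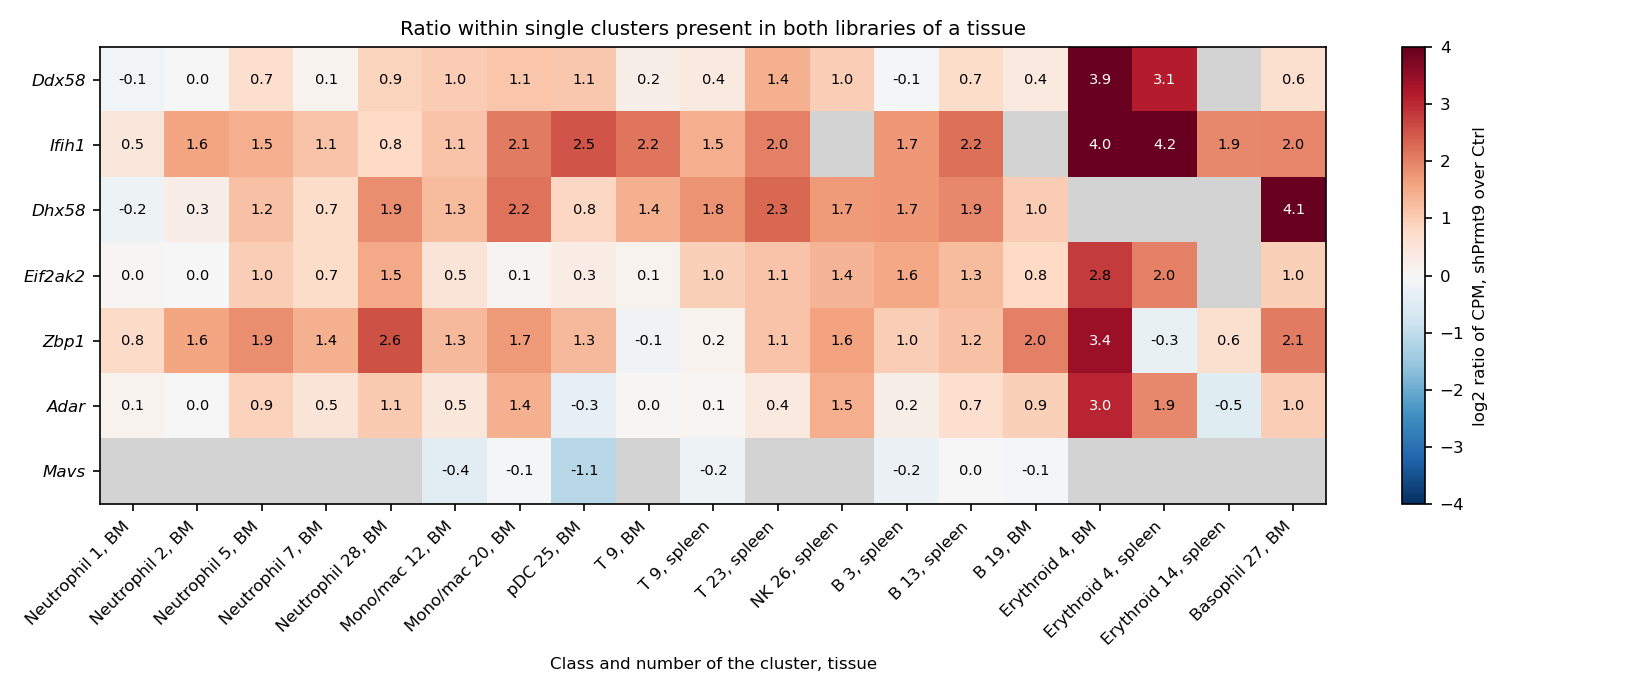
Log2 ratio of shPrmt9 to Ctrl (colour scale, value printed in each cell) for 7 members inside single clusters. Each cluster had at least 50 cells, of any gated class, in each library of a tissue. Grey cells had too few UMIs. Ifih1 is above 0 in each cluster with a value, and Mavs lies between -1.1 and 0.

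Around the members, 55 genes of the same pathways were counted. In MA9 cells 4 of 51 compared were 2-fold higher and 3 lower in marrow, and 5 of 48 higher and 3 lower in spleen, no larger a share than among all genes (13.7% and 11.1% higher, 7.04% and 16.3% lower). Ddx60, a helicase reported to aid Ddx58, was 8.20-fold (marrow) and 6.71-fold (spleen) higher, and Irf7, the factor that amplifies interferon genes, 4.70-fold and 11.04-fold. Tlr13, which reads bacterial ribosomal RNA, was 2.71-fold and 2.21-fold, while Dhx29, a helicase of translation initiation, was 0.418 and 0.440. In T cells 6 of 44 were higher and 3 lower in marrow and 6 of 50 and 3 in spleen, where 3.55% and 9.25% of all genes were lower. Irf7 was 3.87-fold and 4.97-fold and Ddx60 2.66-fold and 3.60-fold there, and Ripk3, a kinase of necroptosis, was 0.330 and 0.411. In B cells 2 of 47 and 3 of 51 were higher and 1 and 2 lower, where 6.77% and 14.2% of all genes were lower, among them Irf7 (6.61 and 8.05) and Ddx60 (5.03 and 2.88). In neutrophils 3 of 51 in marrow and 2 of 46 in spleen were higher and 1 and 8 lower, where 4.71% and 12.9% of all genes were lower. Monocytes/macrophages had 6 of 50 and 7 of 40 higher and 1 lower in each tissue, where 8.56% and 7.7% of all genes were lower. Erythroid cells had 9 of 37 and 7 of 40 higher and 1 and 4 lower, where 3.19% and 18.7% of all genes were lower. Ddx60 and Irf7 were the 2 pathway genes 2-fold higher in both tissues of all 6 classes.

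Over 30 units, each a cell class of 1 library with at least 50 cells, the gene most like each member was sought among 9881 genes by Pearson correlation of log2(CPM + 1). It was Samd9l for Ddx58 (0.891), Oas1a for Ifih1 (0.875), Trafd1 for both Dhx58 (0.850) and Eif2ak2 (0.846), Slfn2 for Zbp1 (0.870) and Trim30d for Adar (0.943). For Mavs it was Slc4a7 (0.908), for Tlr7 Ppfibp2 (0.880) and for Tlr3 Cd86 (0.850). Among the members Dhx58 went with Eif2ak2 (0.871), Zbp1 with Adar (0.847) and Ddx58 with Zbp1 (0.833), whereas Mavs and Ifih1 had -0.213. These correlations describe units that share libraries and differ in depth.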

How the data were processed

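The authors deposited 4 matrices of unnormalized counts of UMIs, genes by barcodes, made with Cell Ranger (6.0.2 per the file headers, 6.1.1 per the submitters' processing notes, build mm10). All values were computed from these counts. Barcodes under 200 genes or over 20% mitochondrial UMIs were dropped, and the highest Scrublet scores (scanpy 1.11.5) were left out up to 0.8% per 1000 barcodes, because Scrublet's own cutoff marked 0 to 183 cells per library. Cells were gated to 13 classes when at least 2 markers of a fixed list led by 1.25 times with a score of at least 0.15. MA9 cells needed 3 of 6 markers and at least 1 marker UMI per 10000 UMIs. Their markers did not have to lead: such a cell was named MA9 also where its neutrophil or neutrophil progenitor score was higher. Of 93 markers 92 were found. Of the 33511 gated cells, 31256 carried the same name from the gate and from the 31 Leiden clusters. They were 96.7% of the gated cells whose cluster had a name. Both are rebuilt names, not the study's. UMIs were summed per class and library and scaled to UMIs per 1000000 UMIs of the class (CPM). Members with at least 20 UMIs over both libraries of a tissue were compared and 2-fold was the rule of size, since 1 library per group allows no test. All 9 members were followed in each main class, though the text does not give every ratio. Pathway genes were eligible to be named where they pass 2-fold the same way in both tissues. Members and lists were chosen with earlier results of these data known. Positions are from GENCODE M21. TMM factors came from edgeR 4.0.16 (R 4.3.3). The ratio code was checked on simulated data.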

Additional observations from a re-analysis of the deposited data

Results flagged for a closer look

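Among the members, 4 pairs of ratios pointed opposite ways in marrow and spleen. Eif2ak2 in MA9 cells was 1.45-fold in marrow and 0.963-fold in spleen. Ddx58 in neutrophils was 1.66-fold and 0.953-fold, and Adar in neutrophils 1.47-fold and 0.865-fold. Adar in T cells was 0.919-fold in marrow and 1.36-fold in spleen. In each pair at least 1 interval reached over 1, the difference between tissues was not tested, and the tissues came from different animals. Of the 248 neutrophils of Spleen-shPrmt9, 74 lay in an MA9 cluster, and without the cells of MA9 clusters Ddx58 was 0.816-fold, Ifih1 0.796-fold and Zbp1 1.28-fold in spleen neutrophils.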

How the results depend on the processing

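Of 837 recomputed ratios 788 stayed within the interval of the reported one and 811 on the same side of 1. Of 288 recomputed counts of members past 2-fold, 269 stayed within 1.5 times. At 1.5-fold in place of 2-fold, 4 members were higher in T cells of each tissue, 4 in spleen monocytes/macrophages, and 1 (Mavs) was lower in marrow MA9 cells and in marrow T cells. Spleen monocytes/macrophages had 5 higher with classes given to whole clusters and 4 with the mean over cells' own CPM or without the richest cell. Marrow basophils had 3 higher under those settings and with no doublet removal. With whole clusters, the mean over cells or no richest cell, 1 member was lower in marrow T cells. With the mean over cells, 0 were lower in spleen B cells, where Tlr3 was 0.545, and 1 in spleen erythroid cells. With no minimum of UMIs, 1 was lower in spleen MA9 cells and 1 in spleen NK cells. Mavs in spleen erythroid cells (1 and 20 UMIs, 2.07) reversed to 0.635 with whole clusters, 0.259 with the mean over cells, 0.654 without the richest cell, 0.725 with no doublet removal and 0.495 under a stricter cell filter; the cause was not tested. Other erythroid ratios also left their intervals. With the mean over cells, those in marrow rose to 28.0 for Ddx58, 43.8 for Dhx58, 20.3 for Zbp1 and 15.8 for Adar. In spleen they rose to 14.6 for Ddx58, 32.9 for Ifih1, 10.8 for Eif2ak2 and 5.65 for Zbp1. With whole clusters Zbp1 in spleen erythroid cells was 0.732. TMM factors moved ratios by 0.862 to 1.29 times. The subtraction of other cells' RNA and the neutrophils without MA9 clusters were chosen after seeing the data. No paired analysis was possible because each group had 1 library, and none could be left out. Mavs had too few UMIs to compare in MA9 cells, neutrophils and monocytes/macrophages of the spleen.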
